A study of Homo sapiens with 12 samples.

Results

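Integrins and laminins were followed in AC16 cells, an established human line made by fusing adult ventricular heart cells with transformed fibroblasts, after siRNA against EP300 and after hydrogen peroxide (H2O2). Genes were taken by symbol: integrin alpha chains (ITGA followed by a digit or by V, X, L, M, E or D), integrin beta chains (ITGB and a digit) and laminin chains (LAMA, LAMB or LAMC and a digit). The names matched 37 of the 17197 symbols in the count table, of which 17 were integrin alpha, 8 integrin beta and 12 laminin chains. The rule reads symbols and no values. A filter on low counts kept 29 of the 37 for testing, among 13171 genes tested in all. The other 8 were ITGA8, ITGA9, ITGAL, ITGAM, ITGB2, ITGB6, ITGB7 and LAMB4, none of which had more than 11 counts in any library.

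RNA was sequenced from 12 libraries in 4 groups of 3. The groups were siEP300.H2O2 (EP300 siRNA, then H2O2), siNC.H2O2 (negative control siRNA, then H2O2), siEP300 (EP300 siRNA without H2O2) and siNC (negative control siRNA without H2O2). All cells were transfected with jetPRIME in serum-free medium. H2O2 was added 12 h after transfection for 1 h, with 200 mM on the label, which would be very high for cultured cells, and RNA was taken after 48 h. The labels do not say whether an siRNA was 1 sequence or a pool, nor whether the 3 libraries of a group were separate cultures, so p-values measure the spread between these libraries, which may be technical. Estimated counts summed to 16081437 to 19033679 per library, and the biological coefficient of variation was 6.72%.

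The titles name EP300 as the siRNA target, but the treatment entries of the same samples name MLF1, and both genes were therefore checked. EP300 had 30.1, 26.9 and 26.5 CPM (counts scaled to the TMM-adjusted library total) in siEP300.H2O2. It had 59.9, 80.4 and 89.9 CPM in siNC.H2O2. Without H2O2 it had 36.3, 36.8 and 36.7 CPM in siEP300, against 101, 69.1 and 80.1 CPM in siNC. No EP300 siRNA library overlapped a control siRNA library. The fit left 36.3% of EP300 with H2O2 and 43.9% without, while it left 82.0% and 86.1% of MLF1. Both genes were thus called lower (edgeR quasi-likelihood test), EP300 with adjusted p = 5.9e-07 and 3.6e-06 and MLF1, by less, with 6.9e-04 and 0.0052. The cells carried fibroblast markers, all 10 of which passed the filter, with a summed level of 7553 to 9800 CPM, mostly COL1A1 and VIM. Of the 16 cardiomyocyte markers in the table only 5 passed. TNNT2, MYH6, MYH7 and MYL2, defining genes of the contractile apparatus, did not exceed 0.156 CPM in any library, while NPPB reached 35.3 to 62.4 CPM. In bulk RNA, fewer cells of a type and less RNA per cell cannot be told apart.

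Integrins are cell surface receptors made of an alpha and a beta chain. They bind matrix proteins outside the cell and, through talin and kindlin, the actin cytoskeleton inside it, and the alpha chain largely sets which ligand is bound. Laminins are trimers of an alpha, a beta and a gamma chain that polymerise into the basement membrane, the thin matrix sheet around heart muscle cells, vessels and epithelia. In heart muscle, laminins that contain LAMA2 surround the myocyte and are bound by integrins that contain ITGA7 and ITGB1. EP300 is a histone acetyltransferase and transcriptional coactivator.

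Levels between genes were compared in FPKM, the deposited unit that is scaled to gene length. ITGB1, the beta chain shared by most matrix integrins, had by far the highest level, with a mean of 442 FPKM over the 12 libraries and a range of 335 to 545. ITGA5, the alpha chain of the main fibronectin receptor, followed at 154 FPKM, and ITGA3, a laminin receptor chain, at 79.5 FPKM. Among laminins LAMC1 had 75.8 FPKM, LAMB1 60.4, LAMB2 46.9 and LAMB3 21.3. The alpha chains were lower than these, with LAMA5 at 14.1 FPKM, LAMA4 at 9.26, LAMA2 at 2.52, LAMA3 at 2.25 and LAMA1 at 1.86. ITGB1 made up 95.1% ± 0.315 of the summed integrin beta FPKM in siEP300.H2O2, 91.8% ± 0.942 in siNC.H2O2, 96.1% ± 0.0868 in siEP300 and 92.8% ± 0.262 in siNC (SD, n = 3 each). LAMC1 made up 98.3% ± 0.161 of the gamma chains in siEP300.H2O2, 97.6% ± 0.310 in siNC.H2O2, 99.2% ± 0.0321 in siEP300 and 98.6% ± 0.239 in siNC. ITGA10 (0.336 FPKM), LAMC3 (0.204 FPKM) and ITGAX (0.149 FPKM) were the lowest of the 29.

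**Figure D1:**
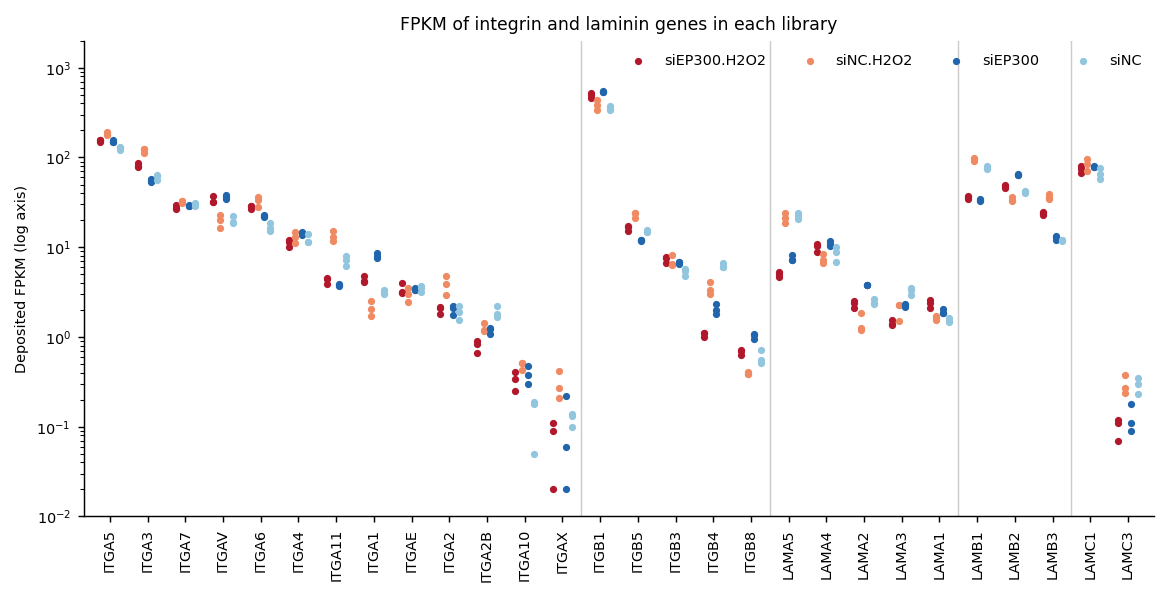
Deposited FPKM (vertical log axis) of tested integrin and laminin genes, sorted by mean level within the integrin alpha, integrin beta, laminin alpha, laminin beta and laminin gamma families. Each point is a library, and colours mark the 4 groups. ITGB1 lies at 335 to 545 FPKM, above every other gene plotted, while ITGAX lies at 0.0200 to 0.420 FPKM.

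With EP300 siRNA some of the tested integrins and laminins rose and others fell, as did genes over the whole table. With H2O2 present, 8 of the 29 rose and 15 fell (edgeR quasi-likelihood test, Benjamini-Hochberg adjusted p under 0.05), and without H2O2 15 rose and 8 fell. These were 27.6% and 51.7% of the 29 with H2O2, and 51.7% and 27.6% without. Of all genes tested, 28.4% rose and 30.6% fell with H2O2, and 30.1% rose and 31.4% fell without it. The share of the 29 that rose with H2O2 and the share that fell without it were thus near those of all genes. The median log2 fold change of the 29 was -0.20 with H2O2 and 0.17 without, beside -0.02 and -0.00 over all genes. Both comparisons called ITGA1, ITGAV, ITGB1, ITGB8, LAMA1, LAMA2, LAMA4 and LAMB2 higher, and ITGA11, ITGA2B, ITGB4, ITGB5, LAMA3, LAMA5, LAMB1 and LAMC3 lower. ITGA5 and LAMB3 were called lower with H2O2 and higher without. ITGA2, ITGA3, ITGA7 and ITGAX were called lower with H2O2 and not without it, ITGA10, ITGA4, ITGA6, ITGB3 and LAMC1 were called higher without it and not with it, and ITGAE was called in neither. The counts include ITGAX, which passed the filter on low counts only through control siRNA libraries. They also include LAMC3, which lay near that filter in the EP300 siRNA libraries. The lower calls of both genes are descriptions only. Whether the effect itself differed with H2O2 is given by the interaction test further on.

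**Figure D2:**
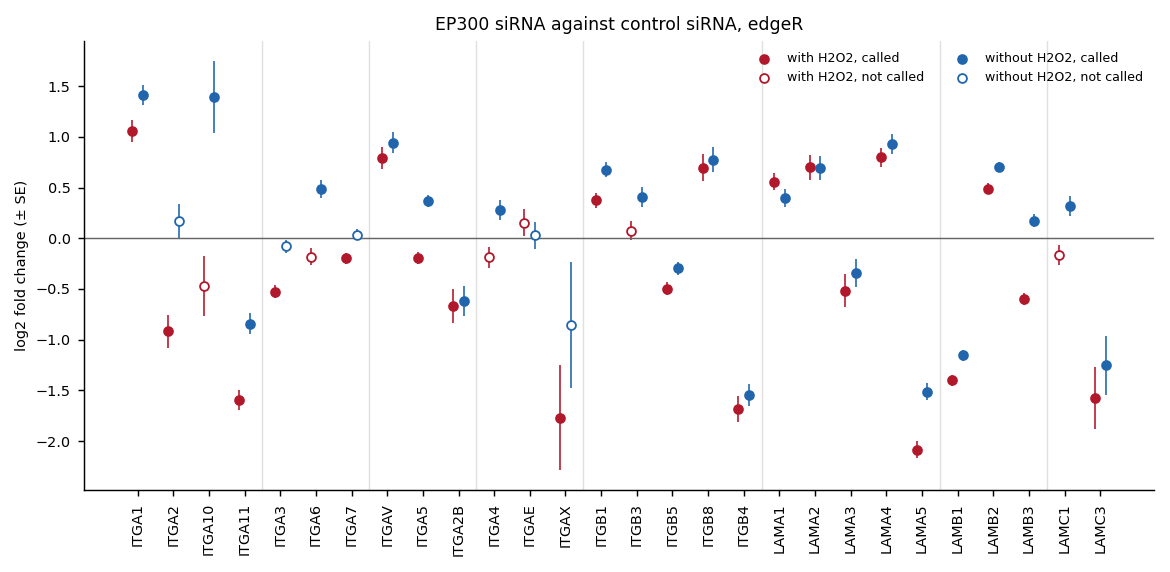
Log2 fold change of EP300 siRNA over control siRNA (vertical axis, edgeR, bars are the SE) for integrin and laminin genes in libraries with H2O2 (red) and without (blue). Filled points passed adjusted p under 0.05. LAMA5, LAMB1, ITGB4, ITGA11 and LAMC3 lie below 0 in both comparisons, while ITGA1, ITGAV and LAMA4 lie above it.

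LAMA5, a laminin alpha chain widespread in adult basement membranes, fell furthest among the 29 genes with H2O2. It lies on chromosome 20 (bases 62307955 to 62367312, minus strand, GRCh38, GENCODE v29). Its level was 59.8, 52.7 and 57.2 CPM in siEP300.H2O2, against 213, 237 and 269 CPM in siNC.H2O2, and without H2O2 90.8, 80.0 and 80.3 CPM in siEP300, against 253, 222 and 241 CPM in siNC. All 6 EP300 siRNA libraries were below all 6 control siRNA libraries. The log2 fold change was -2.08 ± 0.09, adjusted p = 1.1e-10 with H2O2 and -1.51 ± 0.08, adjusted p = 1.7e-09 without (edgeR).

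LAMA4, the alpha chain typical of vessels and of muscle and fat matrix, moved the other way. It had 57.5, 44.4 and 50.1 CPM in siEP300.H2O2, against 26.7, 27.0 and 33.8 CPM in siNC.H2O2, and without H2O2 50.021, 49.7 and 49.7 CPM in siEP300, against 27.4, 25.2 and 25.8 CPM in siNC. The groups did not overlap, and the log2 fold change was 0.80 ± 0.10, adjusted p = 6.3e-06 with H2O2 and 0.93 ± 0.10, adjusted p = 1.3e-06 without (edgeR). In FPKM the rise was smaller, at 10.0 ± 1.00 FPKM in siEP300.H2O2 against 7.44 ± 0.914 in siNC.H2O2 and 10.96 ± 0.713 in siEP300 against 8.61 ± 1.64 in siNC. The transcript length implied by the ratio of deposited counts to FPKM was 4.94 kb in siEP300.H2O2 against 3.86 kb in siNC.H2O2, and 4.55 kb in siEP300 against 3.22 kb in siNC. Its highest group mean was 1.53 times its lowest, the widest ratio among the 29 genes.

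LAMA2, the alpha chain of the myocyte basement membrane, had 23.7, 20.1 and 23.2 CPM in siEP300.H2O2, against 12.2, 11.5 and 17.5 CPM in siNC.H2O2, and without H2O2 36.1, 36.1 and 36.1 CPM in siEP300, against 24.1, 21.8 and 21.2 CPM in siNC. It rose with EP300 siRNA by a log2 fold change of 0.70 ± 0.12, adjusted p = 2.2e-04 with H2O2 and 0.69 ± 0.11, adjusted p = 1.0e-04 without (edgeR). LAMA1, an alpha chain best known from embryonic basement membranes, rose less, by 0.56 ± 0.09 and 0.40 ± 0.09 on the log2 scale. LAMA3, the alpha chain of epithelial anchoring structures, had 9.05, 7.72 and 6.84 CPM in siEP300.H2O2, against 7.97, 12.8 and 13.2 CPM in siNC.H2O2, and without H2O2 17.5, 14.8 and 15.7 CPM in siEP300, against 21.6, 19.2 and 20.1 CPM in siNC. Its libraries overlapped with H2O2, where the log2 fold change was -0.52 ± 0.16, adjusted p = 0.013, and it was -0.34 ± 0.14, adjusted p = 0.046 without H2O2 (edgeR). The call without H2O2 was lost in 10 of 20 alternatives, including without siNC 1, siNC 2, siNC 3, siEP300 5, siEP300 6, siNC.H2O2 8, siEP300.H2O2 11 or siEP300.H2O2 12, with adjusted p up to 0.15 without siEP300 5. The call with H2O2 was lost without siNC.H2O2 8 (adjusted p = 0.064), siNC.H2O2 9 (0.073) or siEP300.H2O2 12 (0.066).

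The 2 beta chains with the highest mean FPKM over the 12 libraries, LAMB1 and LAMB2, can take the same place in a laminin trimer. They moved in opposite directions. LAMB1 (chromosome 7, bases 107923799 to 108003255, minus strand) had 195, 188 and 206 CPM in siEP300.H2O2, against 499.8, 515 and 538 CPM in siNC.H2O2, and without H2O2 174, 182 and 178 CPM in siEP300, against 408, 382 and 397 CPM in siNC. LAMB2 (chromosome 3, bases 49121114 to 49133118, minus strand) had 267, 268 and 255 CPM in siEP300.H2O2, against 187, 177 and 199 CPM in siNC.H2O2, and without H2O2 353, 342 and 340.5 CPM in siEP300, against 213, 209 and 216 CPM in siNC. For both genes, every EP300 siRNA library lay on 1 side of every control siRNA library. LAMB1 fell, at a log2 fold change of -1.40 ± 0.05, adjusted p = 4.6e-11 with H2O2 and -1.15 ± 0.05, adjusted p = 2.3e-10 without, while LAMB2 rose by 0.49 ± 0.05, adjusted p = 1.4e-06 and 0.70 ± 0.05, adjusted p = 3.0e-08 (edgeR). LAMB3, the beta chain of epithelial laminin, was lower with EP300 siRNA under H2O2, at -0.60 ± 0.06, adjusted p = 8.6e-07, and higher without H2O2, at 0.17 ± 0.06, adjusted p = 0.032 (edgeR). The call without H2O2 was lost in 7 of 20 alternatives, among them without siNC 2 (adjusted p = 0.081), siNC 3 (0.055), siEP300 4 (0.10) or siEP300 5 (0.080).

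Among gamma chains, LAMC1, the chain shared by most laminins, had 619, 531 and 582 CPM in siEP300.H2O2, against 553, 652 and 736 CPM in siNC.H2O2, and without H2O2 603, 597 and 619 CPM in siEP300, against 556, 426 and 478 CPM in siNC. It passed the test only without H2O2, at 0.32 ± 0.10, adjusted p = 0.013 (edgeR), and not when siNC 2 was left out (adjusted p = 0.070). With H2O2 the value was -0.16 ± 0.10, adjusted p = 0.17, and 0.024 without siNC.H2O2 7. LAMC3, a minor gamma chain, had 0.607, 0.343 and 0.662 CPM in siEP300.H2O2, against 1.45, 1.51 and 1.90 CPM in siNC.H2O2, and without H2O2 0.491, 0.510 and 0.927 CPM in siEP300, against 1.27, 1.93 and 1.43 CPM in siNC. Its counts were 6 to 12 in siEP300.H2O2, against 24 to 35 in siNC.H2O2, and 9 to 17 in siEP300, against 24 to 37 in siNC. LAMC3 reached 10 counts in all 3 libraries of each control siRNA group, but in 2 of siEP300.H2O2 and 1 of siEP300. With EP300 siRNA levels this near the filter, its log2 fold changes of -1.58 ± 0.30 with H2O2 and -1.25 ± 0.29 without are given as a description.

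The make-up of the alpha and beta chain pools followed from these levels. LAMA5 held 23.6% ± 0.684 of the summed laminin alpha FPKM in siEP300.H2O2, against 62.9% ± 1.14 in siNC.H2O2, and 28.5% ± 0.894 in siEP300, against 58.6% ± 1.02 in siNC (SD, n = 3 each). In FPKM LAMA4 had the largest alpha chain share under EP300 siRNA, with 47.4% ± 1.56 in siEP300.H2O2, against 22.0% ± 1.92 in siNC.H2O2, and 41.3% ± 0.673 in siEP300, against 22.4% ± 2.52 in siNC. In CPM, which is not scaled to length, LAMA5 kept the largest share, at 35.4% ± 1.07 in siEP300.H2O2, against 77.5% ± 0.429 in siNC.H2O2, and 41.1% ± 1.54 in siEP300, against 74.3% ± 0.693 in siNC. The CPM share of LAMA4 was 31.6% ± 1.21 in siEP300.H2O2, against 9.42% ± 0.488 in siNC.H2O2, and 24.5% ± 0.797 in siEP300, against 8.14% ± 0.169 in siNC. The order of the 2 chains under EP300 siRNA thus depends on the length scaling, while the direction of both shares does not. In the beta pool LAMB1 held 33.4% ± 1.18 in siEP300.H2O2, against 57.3% ± 1.61 in siNC.H2O2, and 30.2% ± 0.850 in siEP300, against 59.2% ± 0.585 in siNC. LAMB2 held 44.5% ± 1.72 in siEP300.H2O2, against 20.7% ± 0.792 in siNC.H2O2, and 58.2% ± 0.762 in siEP300, against 31.6% ± 0.446 in siNC. The rest of the beta pool was nearly all LAMB3, at 11.7 to 39.3 FPKM over the 12 libraries, and LAMB4 did not exceed 0.08 FPKM. For LAMA5, LAMA4, LAMB1 and LAMB2 the libraries of the 2 siRNAs did not overlap. The two-sided exact permutation test gave p = 0.1 for each of these 4 chains, the smallest that 3 against 3 libraries allow. The summed laminin alpha level was 21.1 ± 1.75 FPKM in siEP300.H2O2 against 33.8 ± 3.95 in siNC.H2O2, and 26.5 ± 1.31 in siEP300 against 38.3 ± 3.22 in siNC, and the summed laminin beta level was 107 ± 1.46 FPKM in siEP300.H2O2 against 166 ± 3.42 in siNC.H2O2, and 110.4 ± 1.49 in siEP300 against 130.3 ± 3.70 in siNC. ITGA5 and ITGA3 led the integrin alpha pool in every group, and the share of ITGAV was 9.58% ± 0.934 in siEP300.H2O2 against 4.61% ± 0.546 in siNC.H2O2, and 11.2% ± 0.534 in siEP300 against 7.03% ± 0.559 in siNC.

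**Figure D3:**
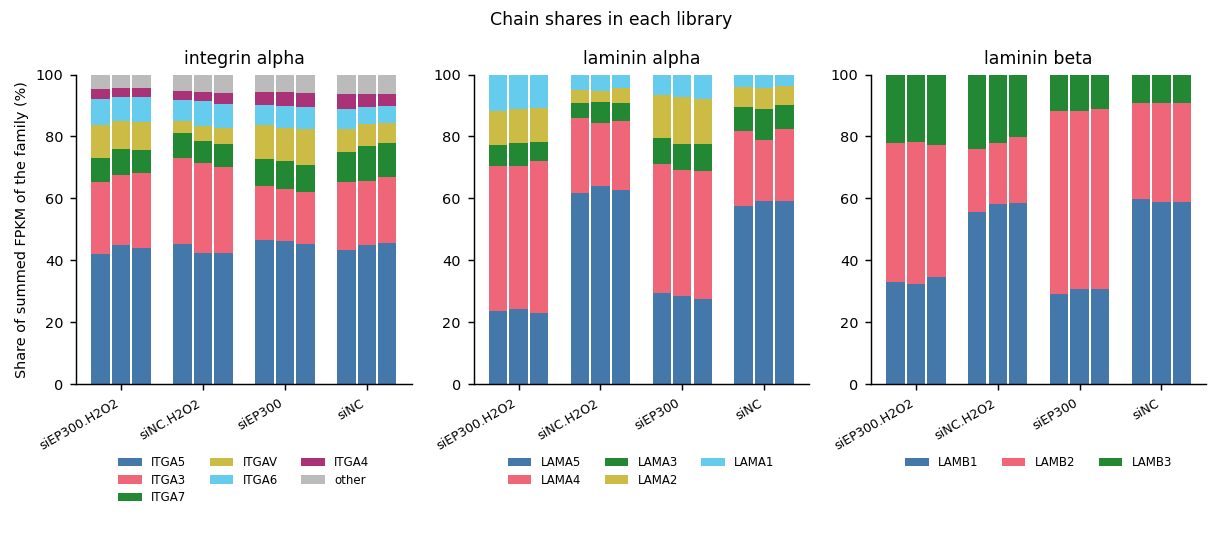
Share of each chain in the summed FPKM of its family (vertical axis, percent), with 1 bar per library and 3 libraries per group. In both EP300 siRNA groups LAMA5 (bottom of the laminin alpha panel) holds 22.9% to 29.3% and LAMB1 (bottom of the laminin beta panel) 29.2% to 34.7%, while in the control siRNA groups they hold 57.4% to 64.1% and 55.5% to 59.8%.

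The 250 bases before the RefSeq start are shown for ITGA1, which rose, and LAMA5 and LAMB1, which fell, because each was called at a log2 change of 1 or more in both EP300 siRNA comparisons, and for LAMB3, which had the smallest interaction p.
ITGA1: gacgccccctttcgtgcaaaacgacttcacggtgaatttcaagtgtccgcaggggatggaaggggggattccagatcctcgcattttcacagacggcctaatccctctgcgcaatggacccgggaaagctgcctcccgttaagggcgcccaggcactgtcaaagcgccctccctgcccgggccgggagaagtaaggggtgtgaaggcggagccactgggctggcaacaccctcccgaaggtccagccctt
LAMA5: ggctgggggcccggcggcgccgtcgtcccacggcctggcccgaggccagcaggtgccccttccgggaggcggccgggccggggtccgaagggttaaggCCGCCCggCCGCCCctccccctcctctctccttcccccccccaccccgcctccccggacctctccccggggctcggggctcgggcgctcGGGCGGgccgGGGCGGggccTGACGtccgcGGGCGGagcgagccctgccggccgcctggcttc
LAMB1: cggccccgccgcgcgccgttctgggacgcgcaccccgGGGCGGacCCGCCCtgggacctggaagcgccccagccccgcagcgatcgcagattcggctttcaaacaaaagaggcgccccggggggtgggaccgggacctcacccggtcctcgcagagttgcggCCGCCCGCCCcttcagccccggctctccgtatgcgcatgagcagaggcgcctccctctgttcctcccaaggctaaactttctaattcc
LAMB3: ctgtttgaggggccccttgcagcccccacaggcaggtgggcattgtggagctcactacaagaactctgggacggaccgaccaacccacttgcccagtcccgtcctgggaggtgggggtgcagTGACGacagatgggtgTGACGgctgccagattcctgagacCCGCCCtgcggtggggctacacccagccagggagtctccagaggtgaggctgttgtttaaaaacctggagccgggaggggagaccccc
The sequences are from RefSeq (GRCh38.p14), read 5′ to 3′ on the strand of the gene, at chr5:52787666-52787915 (plus strand), chr20:62367313-62367562 (minus), chr7:108003162-108003411 (minus) and chr1:209652426-209652675 (minus). The RefSeq start lies 20 (ITGA1), 0 (LAMA5), 1 (LAMB1) and 41 (LAMB3) bases from the nearest GENCODE transcript start. By the GENCODE gene bounds, the windows of ITGA1, LAMB1 and LAMB3 run into the annotated gene. Capitals mark matches, on either strand, to 6 motifs searched: the GC box GGGCGG, the CCAAT box CCAAT, the TATA box TATAAA, the AP-1 site TGANTCA, the TEAD site GGAATG and the cyclic AMP response element core TGACG. LAMA5 held 5 GC boxes and 1 core, LAMB1 4 GC boxes of which 2 overlap, LAMB3 1 GC box and 2 cores, and ITGA1 no match. G and C made up 82.8% of the LAMA5 window, 70.4% of LAMB1, 64% of LAMB3 and 62% of ITGA1, against a median of 58% over the 27305 promoters in the table. Entries were found for 21 of the 29 genes, and 11 of the 21 held a GC box, which 42.3% of all promoters hold. The other motifs were found in 3 (CCAAT box, 33.0% of all promoters), 1 (TATA box, 11.1%), 1 (AP-1 site, 6.60%), 4 (TEAD site, 11.9%) and 6 (core, 21.7%) of the 21. A match describes the letters of the window and no measured binding. ITGB4 and LAMC3 met the same rule of size and are named only.

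ITGA1, which pairs with ITGB1 to bind collagen and laminin, rose most among the members with EP300 siRNA. It lies on chromosome 5 (bases 52787896 to 52959210, plus strand), where 475 of its 10757 annotated exonic bases are shared with PELO on the same strand, so reads there cannot be assigned with certainty. Its level was 50.002, 44.5 and 44.3 CPM in siEP300.H2O2, against 18.3, 21.6 and 26.8 CPM in siNC.H2O2, and without H2O2 83.2, 79.1 and 89.2 CPM in siEP300, against 33.4, 30.5 and 30.7 CPM in siNC. No library of the EP300 siRNA overlapped its control, and the log2 fold change was 1.06 ± 0.11, adjusted p = 7.9e-07 with H2O2 and 1.41 ± 0.10, adjusted p = 2.3e-08 without (edgeR).

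ITGA11, a collagen receptor chain of fibroblasts (chromosome 15, bases 68296533 to 68432162, minus strand), fell. It had 42.9, 38.7 and 44.5 CPM in siEP300.H2O2, against 112, 125 and 145 CPM in siNC.H2O2, and without H2O2 35.9, 36.4 and 36.9 CPM in siEP300, against 73.0, 56.5 and 66.2 CPM in siNC. These groups did not overlap, and the log2 fold change was -1.60 ± 0.10, adjusted p = 4.9e-09 with H2O2 and -0.84 ± 0.10, adjusted p = 4.5e-06 without (edgeR). ITGA2, the other widely expressed collagen receptor chain, had 16.5, 13.8 and 16.3 CPM in siEP300.H2O2, against 22.7, 29.3 and 36.2 CPM in siNC.H2O2, and without H2O2 16.9, 13.2 and 15.8 CPM in siEP300, against 16.2, 11.1 and 13.7 CPM in siNC. It fell with H2O2 at -0.92 ± 0.16, adjusted p = 1.5e-04, and did not pass without H2O2, where the groups overlapped, at 0.17 ± 0.17, adjusted p = 0.41 (edgeR). ITGA10, a collagen receptor chain best known from cartilage, was low at 1.32, 1.54 and 1.16 CPM in siEP300.H2O2, against 1.94, 2.07 and 1.57 CPM in siNC.H2O2, and without H2O2 1.64, 1.13 and 1.80 CPM in siEP300, against 0.158, 0.781 and 0.795 CPM in siNC. Its log2 fold change was -0.47 ± 0.30, adjusted p = 0.19 with H2O2 and 1.39 ± 0.36, adjusted p = 0.0034 without (edgeR).

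The laminin-binding alpha chains were ITGA3, ITGA6 and ITGA7. ITGA3, a chain shared by epithelia and many cultured cells, had 376, 367 and 411 CPM in siEP300.H2O2, against 521, 565 and 576 CPM in siNC.H2O2, and without H2O2 264, 242 and 249.97 CPM in siEP300, against 282, 247 and 271 CPM in siNC. With H2O2 the groups did not overlap and ITGA3 fell, at -0.53 ± 0.06, adjusted p = 6.0e-06, while without H2O2 they overlapped, at -0.08 ± 0.07, adjusted p = 0.30 (edgeR). ITGA6, which pairs with ITGB1 or ITGB4, had 152, 143 and 154 CPM in siEP300.H2O2, against 146, 175 and 188 CPM in siNC.H2O2, and without H2O2 113, 118 and 119.8 CPM in siEP300, against 92.6, 76.5 and 81.4 CPM in siNC. It rose without H2O2 at 0.49 ± 0.09, adjusted p = 1.9e-04, and its value with H2O2 was -0.18 ± 0.08, adjusted p = 0.076, which became 0.0040 when siNC.H2O2 7 was left out (edgeR). ITGA7, the alpha chain of the muscle laminin receptor, had 104 to 126 CPM over the 12 libraries. Its log2 fold change was -0.20 ± 0.05, adjusted p = 0.0043 with H2O2 and 0.04 ± 0.05, adjusted p = 0.57 without (edgeR).

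Among chains that recognise the RGD motif of fibronectin and vitronectin, ITGAV rose, with 251, 213 and 220.2 CPM in siEP300.H2O2, against 109, 133 and 153 CPM in siNC.H2O2, and without H2O2 242, 232 and 258 CPM in siEP300, against 142, 121 and 119 CPM in siNC. The groups did not overlap, and the log2 fold change was 0.79 ± 0.10, adjusted p = 1.3e-05 with H2O2 and 0.94 ± 0.10, adjusted p = 2.1e-06 without (edgeR). ITGA5, the abundant fibronectin receptor chain, had 540.5, 531 and 559 CPM in siEP300.H2O2, against 595, 600.3 and 669 CPM in siNC.H2O2, and without H2O2 548, 526 and 527 CPM in siEP300, against 437, 381 and 422 CPM in siNC. It was lower with EP300 siRNA under H2O2, at -0.19 ± 0.06, adjusted p = 0.013, and higher without H2O2, at 0.37 ± 0.06, adjusted p = 1.0e-04 (edgeR). The call with H2O2 was lost without siNC.H2O2 9 (adjusted p = 0.070) or siEP300.H2O2 11 (adjusted p = 0.054). ITGA2B, the platelet fibrinogen receptor chain, had 2.59, 2.06 and 2.81 CPM in siEP300.H2O2, against 3.72, 3.77 and 4.39 CPM in siNC.H2O2, and without H2O2 3.88, 3.34 and 3.87 CPM in siEP300, against 4.96, 6.72 and 5.41 CPM in siNC, and fell, at -0.67 ± 0.17 and -0.62 ± 0.15 on the log2 scale.

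ITGA4, a receptor chain for VCAM1 and fibronectin, had 65.7 to 95.7 CPM over all libraries and, of the EP300 siRNA comparisons, passed only the one without H2O2, at 0.28 ± 0.10, adjusted p = 0.024 (edgeR). That call was lost without siNC 2 (adjusted p = 0.088), siNC 3 (0.094), siEP300 5 (0.058) or siEP300 6 (0.065). With H2O2 its value was -0.19 ± 0.10, adjusted p = 0.12, and 0.017 without siNC.H2O2 7. Of the leukocyte alpha chains, ITGAX had 0.442, 0.0572 and 0.331 CPM in siEP300.H2O2, against 1.08, 1.26 and 0.596 CPM in siNC.H2O2, and without H2O2 0.491, 0.0567 and 0.164 CPM in siEP300, against 0.528, 0.417 and 0.371 CPM in siNC. These were 8, 1 and 6 counts in siEP300.H2O2, against 20, 20 and 11 counts in siNC.H2O2, and 9, 1 and 3 counts in siEP300, against 10, 8 and 7 counts in siNC. ITGAX passed the filter through the siNC.H2O2 libraries alone, so its difference from that group is given as a description, with a log2 fold change of -1.77 ± 0.52 with H2O2 and -0.86 ± 0.62 without. The value without H2O2 was -1.91 (adjusted p = 0.044) when siEP300 4 was left out. ITGAE, known from T cells that sit in epithelia, had 9.30 to 15.7 CPM and passed in no comparison. PTPRC, which defines leukocytes, did not exceed 0.754 CPM in any library.

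The beta chains also split. ITGB4, the partner of ITGA6 in hemidesmosomes (chromosome 17, bases 75721328 to 75757818, plus strand), had 6.02, 5.37 and 6.18 CPM in siEP300.H2O2, against 16.4, 17.9 and 22.1 CPM in siNC.H2O2, and without H2O2 10.8, 12.2 and 9.70 CPM in siEP300, against 30.6, 30.4 and 34.3 CPM in siNC. EP300 siRNA libraries were lower without overlap, at a log2 fold change of -1.68 ± 0.13, adjusted p = 3.5e-08 with H2O2 and -1.55 ± 0.11, adjusted p = 2.3e-08 without (edgeR). ITGB1, the common beta chain (chromosome 10, bases 32900319 to 33005792, minus strand), had 1806, 1625 and 1779.8 CPM in siEP300.H2O2, against 1180.3, 1333 and 1509 CPM in siNC.H2O2, and without H2O2 1849, 1829.9 and 1876 CPM in siEP300, against 1231, 1113 and 1132 CPM in siNC. It rose by 0.37 ± 0.08, adjusted p = 6.6e-04 with H2O2 and 0.68 ± 0.08, adjusted p = 2.5e-06 without, and no library overlapped its control (edgeR).

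The 3 remaining beta chains are partners of ITGAV. ITGB5, a vitronectin receptor chain, had 44.9, 48.8 and 52.2 CPM in siEP300.H2O2, against 71.6, 70.3 and 64.1 CPM in siNC.H2O2, and without H2O2 35.0, 34.8 and 35.8 CPM in siEP300, against 44.0, 42.8 and 43.0 CPM in siNC, and fell, at -0.50 ± 0.06, adjusted p = 9.9e-06 with H2O2 and -0.30 ± 0.07, adjusted p = 0.0013 without (edgeR). ITGB8, which binds latent TGF-beta, had 6.02, 5.83 and 5.24 CPM in siEP300.H2O2, against 3.45, 3.46 and 3.63 CPM in siNC.H2O2, and without H2O2 8.46, 8.61 and 7.79 CPM in siEP300, against 4.49, 5.78 and 4.24 CPM in siNC. It rose by 0.70 ± 0.13, adjusted p = 4.3e-04 and 0.78 ± 0.12, adjusted p = 5.9e-05 (edgeR). ITGB3, the other vitronectin receptor chain, had 42.4 ± 3.18 CPM in siEP300.H2O2 against 40.2 ± 5.47 in siNC.H2O2, and 38.2 ± 1.26 in siEP300 against 28.9 ± 2.73 in siNC (SD, n = 3 each). ITGB3 passed only without H2O2, at 0.41 ± 0.10, adjusted p = 0.0019, against 0.08 ± 0.09, adjusted p = 0.51 with it (edgeR). Of its 4394 annotated exonic bases, 2266 are shared on the same strand with another gene model, AC068234.1, that is not in the count table.

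**Figure D4:**
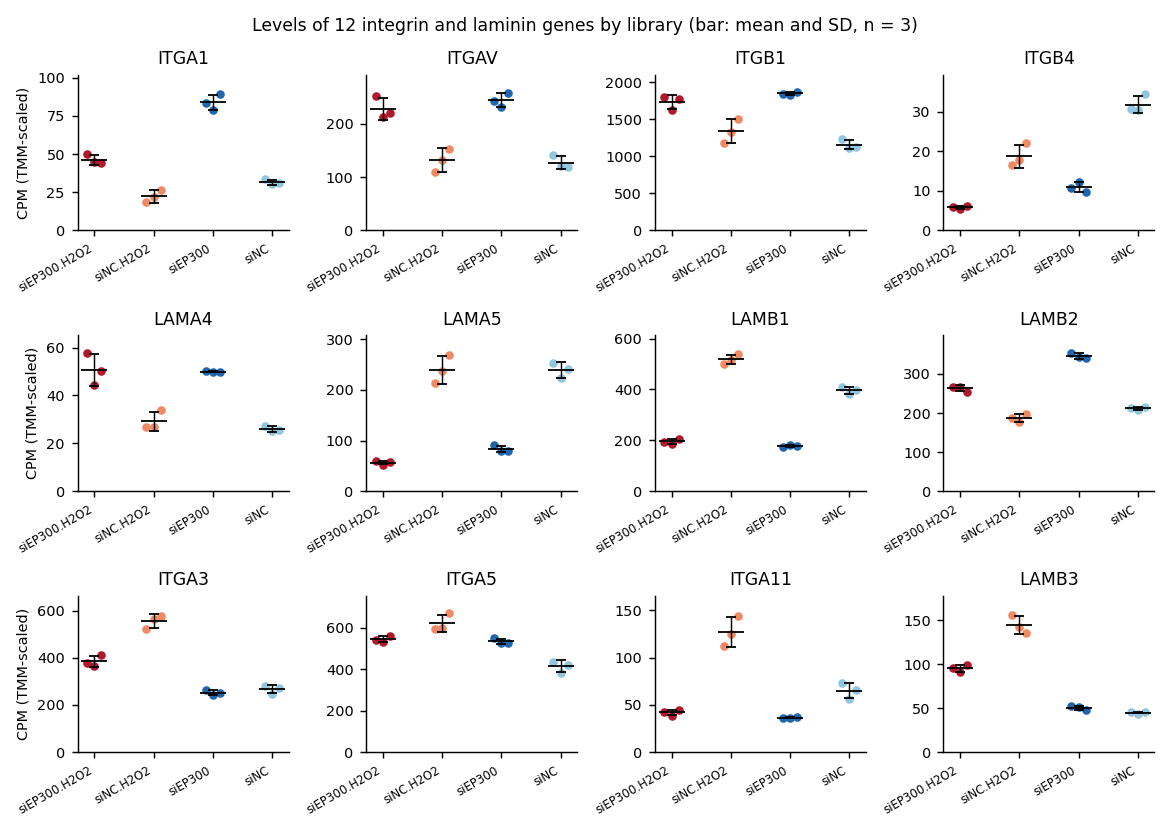
Level in TMM-scaled CPM (vertical axes from 0) of 12 integrin and laminin genes in each of the 12 libraries. Points are libraries and bars are the mean and SD of 3. LAMA5 and LAMB1 are low in both EP300 siRNA groups, LAMB2, ITGA1, ITGAV and LAMA4 are high there, and LAMB3 is highest in siNC.H2O2, at 135 to 156 CPM.

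H2O2 itself raised more integrin and laminin genes under control siRNA than it lowered. With EP300 siRNA, 6 of the 29 rose and 9 fell after H2O2, and with control siRNA 14 rose and 7 fell (edgeR). Over all genes tested, 15.9% rose and 15.1% fell with EP300 siRNA, and 17.8% rose and 17.4% fell with control siRNA. ITGA3, ITGA6, ITGB5 and LAMB3 rose with either siRNA, and ITGA1, ITGA2B, ITGB4, ITGB8, LAMA2, LAMA3 and LAMB2 fell with either. These comparisons and the EP300 siRNA comparisons share libraries in pairs, so their calls are not independent of each other.

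LAMB3, the beta chain of epithelial laminin, rose after H2O2, while LAMA3, an alpha chain found with it in epithelial basement membranes, fell. LAMB3 (chromosome 1, bases 209614870 to 209652466, minus strand) had 95.3, 91.4 and 99.4 CPM in siEP300.H2O2, against 52.4, 51.6 and 48.1 CPM in siEP300, and 156, 143 and 135 CPM in siNC.H2O2, against 45.6, 44.0 and 45.4 CPM in siNC. The H2O2 libraries lay above the others without overlap, at a log2 fold change of 0.91 ± 0.06, adjusted p = 8.8e-08 with EP300 siRNA and 1.68 ± 0.06, adjusted p = 1.0e-10 with control siRNA (edgeR). LAMA3 had -1.02 ± 0.16, adjusted p = 1.9e-04 with EP300 siRNA and -0.85 ± 0.15, adjusted p = 4.1e-04 with control siRNA (edgeR), and its implied transcript length was 5.33 kb in siEP300.H2O2 against 7.05 kb in siEP300, and 5.46 kb in siNC.H2O2 against 6.51 kb in siNC. Summed epithelial markers, mostly KRT8 and KRT18, had 447 to 524 CPM in siEP300.H2O2 against 327 to 333 CPM in siEP300, and 576 to 628 CPM in siNC.H2O2 against 356 to 399 CPM in siNC, and 6 of the 10 passed the filter. Of these 6, 3 rose and 0 fell after H2O2 with EP300 siRNA, beside 15.9% and 15.1% of all genes. With control siRNA 3 rose and 1 fell, beside 17.8% and 17.4% of all genes. KRT5 and KRT14, defining keratins of the basal epidermis, were at most 0.0552 and 0.108 CPM. The part of epithelial gene expression in the LAMB3 values was not tested.

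Of the integrin alpha chains, ITGA3 rose after H2O2 by 0.61 ± 0.07, adjusted p = 7.3e-06 with EP300 siRNA and 1.06 ± 0.07, adjusted p = 1.5e-08 with control siRNA, and ITGA6 by 0.35 ± 0.09, adjusted p = 0.0058 and 1.02 ± 0.09, adjusted p = 4.4e-07 (edgeR). ITGA11 rose with control siRNA at 0.96 ± 0.10, adjusted p = 2.4e-06 and had 0.21 ± 0.10, adjusted p = 0.14 with EP300 siRNA (edgeR). ITGA2 likewise passed only with control siRNA, at 1.11 ± 0.16, adjusted p = 9.0e-05, against 0.02 ± 0.17, adjusted p = 0.94 with EP300 siRNA (edgeR). ITGA5 did so at 0.59 ± 0.06, adjusted p = 3.9e-06, against 0.03 ± 0.06, adjusted p = 0.77 (edgeR). ITGA10 had 1.67 ± 0.35, adjusted p = 0.0017 with control siRNA and -0.19 ± 0.31, adjusted p = 0.67 with EP300 siRNA, at levels of 0.158 to 2.07 CPM (edgeR). Thus 3 of the 4 collagen-binding chains rose with control siRNA, beside 17.8% of all genes that rose and 17.4% that fell. For ITGA10 this rests on 3, 15 and 15 counts in siNC. The fourth chain, ITGA1, fell, at -0.86 ± 0.10, adjusted p = 1.5e-05 with EP300 siRNA and -0.51 ± 0.11, adjusted p = 0.0022 with control siRNA (edgeR).

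Other members were also called after H2O2. LAMB1 rose with control siRNA at 0.39 ± 0.05, adjusted p = 4.6e-05 and had 0.14 ± 0.05, adjusted p = 0.060 with EP300 siRNA (edgeR). LAMA5 fell only with EP300 siRNA, at -0.57 ± 0.09, adjusted p = 2.0e-04, against 0.01 ± 0.08, adjusted p = 0.96 with control siRNA, where the groups overlapped (edgeR). Of the genes that fell with either siRNA, LAMA2 had log2 fold changes of -0.69 ± 0.11 with EP300 siRNA and -0.70 ± 0.12 with control siRNA. LAMB2 had -0.39 ± 0.05 and -0.18 ± 0.05, ITGB4 -0.89 ± 0.13 and -0.76 ± 0.10, ITGB8 -0.54 ± 0.12 and -0.46 ± 0.14 and ITGA2B -0.57 ± 0.17 and -0.52 ± 0.15 in the same order. ITGB5 rose by 0.46 ± 0.07 and 0.67 ± 0.06 in the same order. ITGB1 passed with control siRNA at 0.21 ± 0.08, adjusted p = 0.044, where the groups overlapped, and lost that call in 11 of 20 alternatives, including without siNC 2, siNC 3, siEP300 4, siEP300 5, siEP300 6, siNC.H2O2 8, siNC.H2O2 9 or siEP300.H2O2 12, with adjusted p up to 0.20 without siNC.H2O2 9. LAMB2 lost its call with control siRNA without siNC.H2O2 8 (adjusted p = 0.076), and ITGB8 (0.10) and ITGA2B (0.064) lost theirs without siNC 2. ITGA7, ITGB3 and LAMC1 rose with control siRNA only, by 0.19 ± 0.05, 0.48 ± 0.10 and 0.41 ± 0.10. ITGA7 lost its call in 3 of 20 alternatives: both limma fits on FPKM (adjusted p = 0.21 in each) and only the groups compared (0.051). LAMC1, whose siNC.H2O2 and siNC libraries overlapped, lost its call with limma on log2(FPKM + 0.1) (adjusted p = 0.055). LAMA1 rose with EP300 siRNA only, by 0.34 ± 0.08, and ITGA4 fell with EP300 siRNA only, at -0.31 ± 0.10, a call lost without siEP300 5 or 6 or without siEP300.H2O2 11 or 12 (adjusted p = 0.082, 0.088, 0.13 and 0.059). ITGA2B lost its call with EP300 siRNA without siEP300 4, siEP300 6 or siEP300.H2O2 11 (adjusted p = 0.062, 0.061 and 0.088). LAMA4, ITGAV, ITGAX, ITGAE and LAMC3 passed with neither siRNA.

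**Figure D5:**
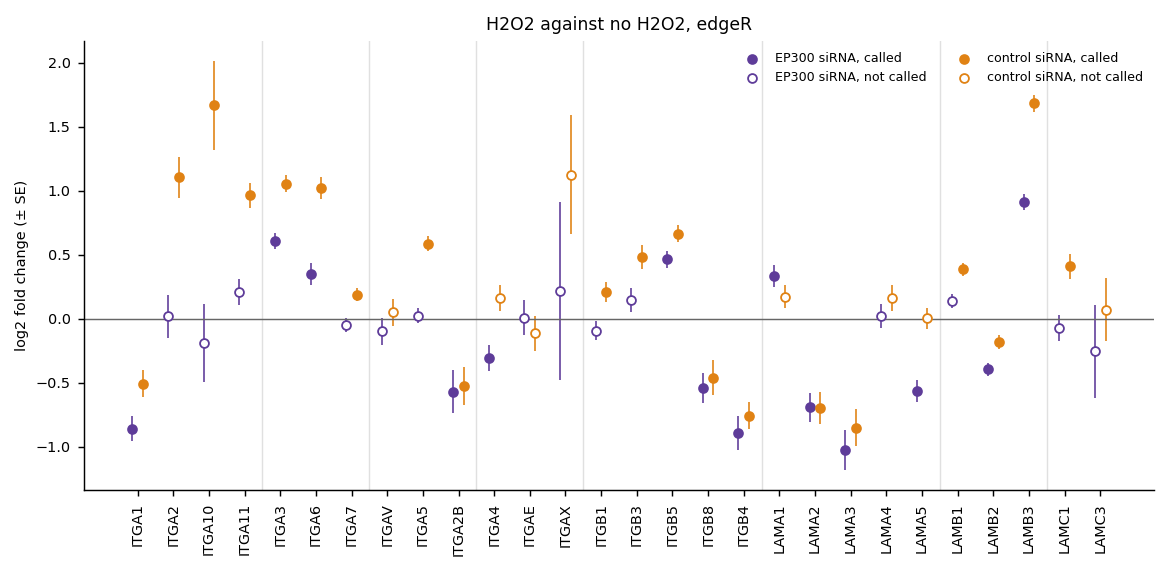
Log2 fold change of H2O2 over no H2O2 (vertical axis, edgeR, bars are the SE) for integrin and laminin genes in cells with EP300 siRNA (purple) and control siRNA (orange). Filled points passed adjusted p under 0.05. For ITGA2, ITGA3, ITGA5, ITGA6, ITGA10, ITGA11 and LAMB3 the orange point lies above the purple one and the interaction passed the test.

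The interaction was taken as the log2 fold change of EP300 siRNA under H2O2 minus its log2 fold change without H2O2. It was called negative for 8 of the 29 genes and positive for none, against 2.21% of all genes called negative and 1.12% called positive. The estimate was below 0 for 26 of the 29, with a median of -0.33 beside -0.00 over all genes. That background is not matched to the 29 for gene length. At an unadjusted p under 0.05 edgeR gave 17 negative and 0 positive, and DESeq2 called 11 negative and 0 positive. Over all genes, 9.22% were negative and 7.64% positive at that unadjusted p, and DESeq2 called 3.17% negative and 1.70% positive. LAMB3 had the smallest adjusted p, with an interaction of -0.77 ± 0.09, adjusted p = 5.5e-04 on the log2 scale (edgeR). ITGA5 had -0.56 ± 0.09, adjusted p = 0.0026, ITGA6 -0.67 ± 0.12, adjusted p = 0.0077 and ITGA11 -0.76 ± 0.14, adjusted p = 0.0089 (edgeR). These 4 passed in all 19 alternatives. ITGA3 had -0.45 ± 0.09, adjusted p = 0.015, LAMA5 -0.57 ± 0.12, adjusted p = 0.017, ITGA2 -1.09 ± 0.23, adjusted p = 0.019 and ITGA10 -1.86 ± 0.46, adjusted p = 0.043 (edgeR).

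The interaction calls changed when single libraries were left out. Without siEP300 4 or without siEP300.H2O2 11 only 4 genes were called negative, and without siNC.H2O2 7 there were 13. The share of all genes called negative moved too, to 1.03% and 1.21% without the first 2 and 3.45% without siNC.H2O2 7, from 2.21% with all libraries. ITGA3 (adjusted p = 0.060 and 0.051), LAMA5 (0.061 and 0.054), ITGA2 (0.065 and 0.057) and ITGA10 (0.11 and 0.069) lost their calls without siEP300 4 and without siEP300.H2O2 11. ITGA2 and ITGA10 also lost theirs without siNC 3 (adjusted p = 0.051 and 0.052) or siEP300 6 (0.055 and 0.12). ITGA2 lost its call without siNC 2 (0.050), and ITGA10 without siNC.H2O2 8 (0.10), siEP300.H2O2 10 (0.073) or siEP300.H2O2 12 (0.098). The leading axis of difference between libraries of the same group took up 28.6% of the within-group variance, and the loading of a gene on it had a rank correlation of 0.68 with implied gene length, a description across genes that share these libraries. On this axis siNC 1 (17.6) and siEP300.H2O2 10 (15.8) were highest and siNC.H2O2 7 (-13.9) and siNC 2 (-11.4) lowest. The 29 genes had a median implied length of 5.34 kb against 2.86 kb for all genes tested, and 21 of them loaded positively. Over all genes tested, the interaction estimate itself had a rank correlation of -0.19 with implied length. For EP300 siRNA this was 0.14 with H2O2 and 0.21 without. For H2O2 it was -0.16 with EP300 siRNA and -0.03 with control siRNA. With a smooth length trend removed from every library, the interaction called 12 of the 29 negative and 0 positive, and 5.35% of all genes negative.

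Partners of these receptors and of the basement membrane were read from 4 lists. Of 20 other basement membrane genes tested, 3 rose and 9 fell with EP300 siRNA under H2O2, and 8 rose and 6 fell without H2O2 (edgeR). These were 15% and 45% of the list with H2O2, beside 28.4% and 30.6% of all genes, and 40% and 30% without, beside 30.1% and 31.4%. The median log2 fold change of the list was -0.26 with H2O2 and 0.11 without. COL4A1, a chain of the collagen network that laminin sheets are joined to, had 582 ± 19.1 CPM in siEP300.H2O2 against 269 ± 50.6 in siNC.H2O2, and 652 ± 35.9 in siEP300 against 175 ± 16.1 in siNC (SD, n = 3 each). It rose by 1.11 ± 0.10, adjusted p = 3.4e-07 and 1.90 ± 0.11, adjusted p = 1.6e-09 (edgeR). PXDN, the peroxidase that crosslinks this collagen, fell, at -0.89 ± 0.08, adjusted p = 1.2e-07 and -0.97 ± 0.08, adjusted p = 5.1e-08 (edgeR). NTN4, a netrin that binds laminin gamma chains, rose without H2O2 to 89.6 ± 2.69 CPM in siEP300 against 39.6 ± 0.699 in siNC. The interaction was called negative for 7 of the 20 and positive for none, beside 2.21% and 1.12% of all genes, with COL4A1 at -0.79 ± 0.15, COL4A2 at -0.54 ± 0.09, SPARC at -0.40 ± 0.06 and NID2, a nidogen that joins laminin to collagen, at -0.81 ± 0.15.

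Of 19 other integrin ligands tested, 5 rose and 7 fell with EP300 siRNA under H2O2, and 7 rose and 9 fell without it (edgeR). These were 26.3% and 36.8% of the list with H2O2, and 36.8% and 47.4% without, beside the same shares of all genes as above. The median log2 fold change of the list was -0.23 with H2O2 and -0.16 without. CCN1, a matricellular ligand of several integrins, had 2805 ± 239 CPM in siEP300.H2O2 against 929 ± 32.9 in siNC.H2O2, and 1885 ± 37.8 in siEP300 against 650.0 ± 22.0 in siNC (SD, n = 3 each). CCN2, its relative, rose by 2.21 ± 0.09, adjusted p = 1.1e-10 and 2.06 ± 0.09, adjusted p = 2.3e-10 (edgeR). THBS1 fell to 228 ± 5.34 CPM in siEP300.H2O2 against 686 ± 30.8 in siNC.H2O2, and to 116 ± 5.46 in siEP300 against 263 ± 36.7 in siNC. VTN, which encodes vitronectin, fell, at -2.09 ± 0.17, adjusted p = 9.0e-08 and -2.22 ± 0.15, adjusted p = 9.6e-09 (edgeR). The interaction was called negative for 4 of the 19 and positive for none, beside 2.21% and 1.12% of all genes: TNC at -0.82 ± 0.13, FN1, which encodes fibronectin, at -0.58 ± 0.13, LTBP1 at -0.64 ± 0.16 and THBS2 at -0.54 ± 0.14.

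Of 36 adaptors and kinases that act on the inner side of integrins, 11 rose and 18 fell with EP300 siRNA under H2O2, and 11 rose and 13 fell without it. These were 30.6% and 50% of the list with H2O2, beside 28.4% and 30.6% of all genes, and 30.6% and 36.1% without, beside 30.1% and 31.4%. The median log2 fold change of the list was -0.17 with H2O2 and -0.07 without. After H2O2, 13 rose and 6 fell with EP300 siRNA, and 17 rose and 4 fell with control siRNA. These were 36.1% and 16.7% with EP300 siRNA, beside 15.9% and 15.1% of all genes, and 47.2% and 11.1% with control siRNA, beside 17.8% and 17.4%. For the interaction, 2 of the 36 (5.56%) were called negative and none positive, beside 2.21% and 1.12% of all genes. The list median of the interaction was -0.05. TLN2, a talin, fell, at -1.02 ± 0.08, adjusted p = 6.4e-08 and -0.84 ± 0.08, adjusted p = 4.6e-07 with EP300 siRNA, and FERMT2, a kindlin, rose under H2O2 by 0.52 ± 0.06, adjusted p = 1.7e-06 (edgeR). LPXN, a paxillin relative, rose after H2O2 to 14.3 ± 0.505 CPM in siEP300.H2O2 against 6.31 ± 0.875 in siEP300, and to 23.2 ± 0.789 in siNC.H2O2 against 7.46 ± 0.357 in siNC (SD, n = 3 each). Of 12 other laminin receptors and integrin-associated membrane proteins, 3 rose and 5 fell with EP300 siRNA under H2O2, and 4 rose and 5 fell without it. These were 25% and 41.7% of the list with H2O2, beside 28.4% and 30.6% of all genes, and 33.3% and 41.7% without, beside 30.1% and 31.4%. The median log2 fold change of the list was -0.07 with H2O2 and -0.06 without. Over all genes the medians were -0.02 and -0.00. For the interaction, 2 of the 12 (16.7%) were called negative and 1 (8.33%) positive, with a list median of -0.06. DAG1, which encodes dystroglycan, the main laminin receptor outside the integrin family, rose by 0.43 ± 0.07, adjusted p = 1.0e-04 and 0.46 ± 0.07, adjusted p = 4.3e-05. The tetraspanins CD82 and CD9 fell, CD82 at -1.63 ± 0.08, adjusted p = 3.2e-10 and -1.06 ± 0.08, adjusted p = 6.3e-08 and CD9 at -1.09 ± 0.09, adjusted p = 8.8e-08 and -1.66 ± 0.10, adjusted p = 2.4e-09 (edgeR).

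Markers of other cell types were read beside these values. Summed cardiomyocyte markers, mostly NPPB, were 47.1 to 54.9 CPM in siEP300.H2O2 against 64.0 to 79.5 CPM in siNC.H2O2, and 46.1 to 48.9 CPM in siEP300 against 60.5 to 62.6 CPM in siNC. Summed endothelial markers, of which 6 of the 9 in the table passed, were 16.2 to 17.8 CPM in siEP300.H2O2 against 35.0 to 40.0 CPM in siNC.H2O2, and 20.5 to 22.1 CPM in siEP300 against 37.8 to 45.2 CPM in siNC. CDH5 and ERG, which define endothelium, did not exceed 0.0572 CPM in any library. Over the 12 libraries EGFL7 had 5.72 to 32.9 CPM, TEK 2.01 to 10.2 CPM and KDR 1.99 to 7.81 CPM. Summed smooth muscle markers, mostly TAGLN and SMTN, of which 7 of 8 passed, were 711 to 876 CPM in siEP300.H2O2 against 560.0 to 631 CPM in siNC.H2O2, and 605 to 617 CPM in siEP300 against 405 to 434 CPM in siNC, with MYH11 at most 0.686 CPM. Summed fibroblast markers, mostly COL1A1 and VIM, were 7553 to 7971 CPM in siEP300.H2O2 against 9189 to 9659 CPM in siNC.H2O2, and 9526 to 9800 CPM in siEP300 against 8971 to 9257 CPM in siNC. Summed leukocyte markers, mostly CD68, of which 3 of the 8 in the table passed, were 70.8 to 85.1 CPM in siEP300.H2O2 against 54.9 to 57.8 CPM in siNC.H2O2, and 43.4 to 47.8 CPM in siEP300 against 35.3 to 44.4 CPM in siNC. Markers within the fibroblast, smooth muscle, endothelial and leukocyte lists went both ways with EP300 siRNA. Of the 6 endothelial markers tested, 1 rose and 5 fell under H2O2, and 1 rose and 4 fell without it. Of the 3 leukocyte markers tested, 2 rose and 1 fell under H2O2, and 1 rose and 1 fell without it. Of the 5 cardiomyocyte markers tested, 0 rose and 3 fell under H2O2, and 0 rose and 4 fell without it. With EP300 siRNA, 20% of the fibroblast markers rose and 60% fell under H2O2, and 40% rose and 40% fell without it. Of the smooth muscle markers tested, 57.1% rose and 28.6% fell in either comparison. Over all genes, 28.4% rose and 30.6% fell with H2O2, and 30.1% rose and 31.4% fell without it. The part of these marker genes and cell types in the integrin and laminin values was not tested.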

How the data were processed

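RNA of 12 AC16 libraries was sequenced by BGI, per the labels' protocols. The authors deposited estimated counts per gene, of which 12.0% to 13.8% per library were not whole, and FPKM values for the same genes. The submitters' processing notes name HISAT, Bowtie2 and GRCh38.p13; for versions, counting tool, annotation and strand use the entry is "not given in the sources used here".

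Counts were rounded and fitted with edgeR 4.0.16 (quasi-likelihood test, TMM scaling, filterByExpr) in R 4.3.3, with 4 group means over all 12 libraries. A two-sided Benjamini-Hochberg adjusted p under 0.05 over all 13171 genes tested was called. CPM values are TMM-scaled, SE is the log2 fold change over the root of F, and FPKM was used between genes. Each replicate pair differed by more than counting noise. Shares of chains were compared by exact permutation over libraries. The fit was tested on simulated counts drawn independently at the common dispersion. That test does not cover the length-related axis within groups or a spread that differs between genes. Alternatives were other size factors, no filter, DESeq2 1.42.0, limma 3.58.1 on log2(FPKM + 1) and log2(FPKM + 0.1), only the groups compared, a length trend removed (lowess span 0.3), and libraries left out. Every tested member is named except 1 that is counted but not reported here, with values per library where a call reached 1.5-fold at a mean of 1 CPM or more; of each other list up to 4 genes with the smallest adjusted p are named. Coordinates are from GENCODE v29 and promoters from RefSeq. Promoters are shown for members called at a log2 change of 1 or more in both EP300 siRNA comparisons and for the smallest interaction p. Figures were drawn with matplotlib 3.10.9. The members and lists were chosen with earlier results of these data known.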

Additional observations from a re-analysis of the deposited data

Results flagged for a closer look

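For 8 genes the EP300 siRNA effect with H2O2 differed from the effect without H2O2 by the interaction test (edgeR, adjusted p under 0.05). The difference on the log2 scale, with H2O2 minus without, was -1.86 for ITGA10, -1.09 for ITGA2, -0.77 for LAMB3, -0.76 for ITGA11, -0.67 for ITGA6, -0.57 for LAMA5, -0.56 for ITGA5 and -0.45 for ITGA3. The sign was negative in all 19 alternatives for each of the 8, and the call was made in 19 of 19 for ITGA11, ITGA5, ITGA6 and LAMB3, 16 for ITGA3, 15 for LAMA5, 13 for ITGA2 and 12 for ITGA10.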

How the results depend on the processing

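Counts of called integrins and laminins in the comparisons of 2 groups stayed within 1.5 times of the reported ones in every alternative. With 1 library left out, EP300 siRNA with H2O2 gave 8 to 8 higher and 13 to 18 lower (8 and 15 reported), and without H2O2 12 to 15 higher and 7 to 9 lower (15 and 8 reported). H2O2 gave 6 to 7 higher and 7 to 9 lower with EP300 siRNA (6 and 9 reported), and 13 to 15 higher and 5 to 7 lower with control siRNA (14 and 7 reported). The interaction, with 8 called lower, gave 5 with limma on log2(FPKM + 0.1), 11 with DESeq2, 12 with the length trend removed, 15 without siNC 1 and siNC.H2O2 7 together, and 4 to 13 with 1 library left out; the cause was not tested. Over all genes, 2.21% were called negative in the reported fit, 1.25% with limma on log2(FPKM + 0.1), 3.17% with DESeq2, 5.35% with the length trend removed, 9.28% without both libraries, and 1.03% to 3.45% with 1 library left out. The interaction called no member higher in any alternative. siNC 1 (17.6) and siNC.H2O2 7 (-13.9) lie at opposite ends of the within-group axis, on which 21 of the 29 genes loaded positively. Leaving out both therefore moves the interaction of such genes down by the choice of libraries. That fit is no support for the negative calls. Of 2869 values for single genes under an alternative, 2681 kept direction and call, 78 lost the call, 51 gained it, 59 changed sign without a call and 0 were reversed. No paired analysis was possible because the titles number the libraries 1 to 12 and no number is shared between groups. Counts of at most 11 limited the 8 genes that were not tested, and ITGA10, LAMC3 and ITGAX were close to that limit.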
